A study of Mus musculus with 12 samples.

Results

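The genes described here build the degradative machinery of the lysosome in microglia. They are 59 of the 24328 gene symbols of the count table: 34 chosen by name, namely hydrolases with their activators, membrane proteins and regulators of the lysosome, and the 25 symbols that begin with Atp6v or are Atp6ap1 or Atp6ap2, which belong to the vacuolar proton pump (V-ATPase). Cathepsins are not among them. Microglia, the macrophages that live in the brain, were sorted by FACS from BALB/c mice of wild-type genotype, and 1 RNA-seq library was made from each of 12 mice, 4 per group. Control mice were not transplanted. Syngeneic and allogeneic recipients were both lethally irradiated and given 5000000 bone marrow cells together with 300000 T cells, and both were killed and perfused on day 14, when graft-versus-host disease (GvHD, in which T cells of the graft attack the recipient's tissues) is at its height per the labels. The sources used here do not give the donor strain.

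Lysosomes are acidic organelles in which macrophages break down what they take up and what they recycle from their own cytoplasm. The V-ATPase pumps protons into them: its V1 sector in the cytosol splits ATP, and its V0 sector in the membrane carries the protons. Soluble hydrolases work in the acid interior and remove sugars, sulfate groups and lipids, and many inherited storage diseases with brain involvement come from the loss of one of them. The transcription factor TFEB drives many lysosomal genes by binding an E-box-like DNA motif known as the CLEAR element. Microglia rely on this machinery when they clear myelin debris and dying cells.

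The depth was 32652208 to 45439607 counts per control library, 36422729 to 46126118 per syngeneic library and 35559202 to 42641198 per allogeneic library. Levels are counts scaled to library size with TMM factors (CPM), so that CPM compares 1 gene between libraries; CPM divided by transcript length in kb compares genes. Log2 fold changes are given ± SE or with the SE named, and adjusted p-values are from edgeR's quasi-likelihood test across 12695 genes. "Rose" and "fell" are used of genes with an adjusted p under 0.05. Microglia markers were abundant in every library: the summed CPM of 10 markers was 43838 to 49728 in control, 38574 to 41670 in syngeneic and 25824 to 27294 in allogeneic libraries. They split in syngeneic against control, where 5 rose (P2ry12, Gpr34, Fcrls, Siglech and Olfml3) and 5 fell (Csf1r, Tmem119, Cx3cr1, Sall1 and P2ry13), and in allogeneic against syngeneic 8 fell and none rose. Of the 59 genes, 52 had enough counts to be tested, all 34 named genes and 18 of the V-ATPase. Of the other 7, Atp6v1g3, Atp6v1e2, Atp6v1b1 and the pseudogene Atp6v0c-ps2 had no count in any library, Atp6v0a4 had 21 and Atp6v0d2 had 49 over all 12. Atp6v0c, which encodes the proton-carrying ring protein of V0, was listed with 1 count in all 12 libraries together, and 49.3% of the 50-base segments of its transcript also occur in its pseudogenes; whether the shared sequence bears on the missing counts was not tested, and no value of that subunit is given.

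Because TFEB is itself one of these genes, promoter windows of 300 bases (250 before to 50 after the annotated start, RefSeq sequence, GRCm38.p6) were searched on both strands for the letters TCACGTG, a core of the CLEAR element that contains the E-box CACGTG. A window was at hand for 50 of the 59 genes, and 13 (26%) held TCACGTG, against 6.94% of the 9695 tested genes with a window and 4.29% of 27025 genes with one. The E-box CACGTG alone was in the same number, 13 of 50, against 11.8% of tested genes with a window. The full CLEAR palindrome, which extends TCACGTG on both sides and is the longer run of capitals in Cln3 below, was in 1 window, that of Cln3 (2%, against 0.825%). The holders were Arsa, Atp6v0b, Atp6v0d1, Atp6v0e, Atp6v1a, Cln3, Gaa, Gla, Glb1, Lamp1, Mcoln1, Naglu and Sgsh. Matched letters are a description of these windows and no evidence of binding. Of the genes below that rose in allogeneic against syngeneic microglia, 7 of 21 with a window held the motif, and so did 5 of 15 that fell in syngeneic against control. Gaa was in both of these sets. Shares were similar among genes not called, 6 of 21 in the first comparison and 4 of 12 in the second. Of those that rose in the second, 4 of 18 held it. The stretches that follow, written 5′ to 3′ on the gene's strand with motif matches in capitals, are those of 3 genes that rose in the first of these comparisons (Lamp1, Gla, Naglu) and 3 that fell in the second (Cln3, Mcoln1, Sgsh), so that holders of both kinds can be seen side by side.
Lamp1: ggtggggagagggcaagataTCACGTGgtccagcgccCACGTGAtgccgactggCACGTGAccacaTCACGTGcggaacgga
Gla: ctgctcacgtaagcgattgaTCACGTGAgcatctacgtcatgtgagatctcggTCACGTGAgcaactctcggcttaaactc
Naglu: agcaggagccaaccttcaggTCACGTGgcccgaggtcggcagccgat
Cln3: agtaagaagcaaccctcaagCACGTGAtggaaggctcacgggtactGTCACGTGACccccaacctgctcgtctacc
Mcoln1: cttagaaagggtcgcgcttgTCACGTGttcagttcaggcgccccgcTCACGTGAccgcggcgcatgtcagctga
Sgsh: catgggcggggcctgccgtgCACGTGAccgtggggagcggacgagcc
They lie upstream of the start site at chr8:13159079-13159160, plus strand (Lamp1), chrX:134601173-134601253, minus strand (Gla), chr11:101070000-101070046, plus strand (Naglu), chr7:126583330-126583405, minus strand (Cln3), chr8:3500427-3500500, plus strand (Mcoln1) and chr11:119355513-119355559, minus strand (Sgsh). Lamp1 has 4 matches within 82 bases, and Gla, Cln3 and Mcoln1 have 2 each.

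Allogeneic microglia were compared with syngeneic microglia to separate GvHD from irradiation and transplantation. The largest rises in allogeneic libraries were those of Gla (1.53 ± 0.31), Neu1 (1.11 ± 0.16), Cd63 (0.81 ± 0.080), Gm2a (0.80 ± 0.069) and Npc2 (0.79 ± 0.075). Of 52 tested genes, 23 rose and 4 fell (Arsb, Cd68, Npc1 and Laptm5), where 10.1% and 6.38% of all tested genes rose and fell, and their median log2 fold change was 0.29, beside -0.015 over all genes. By role, 7 rose and 1 fell of 15 glycan hydrolases, 5 and 1 of 8 genes of lipid breakdown and export, and 4 and 2 of 8 membrane proteins (5 and 3, 2 and 1, and 2 and 2 by library totals). The 4 allogeneic libraries lay wholly above the 4 syngeneic ones for 25 of the genes and wholly below for 4, where 20.7% of all tested genes were separated one way or the other. Scaled by library totals only, which moves the median of all genes to -0.22, 12 rose and 10 fell, with a median of 0.080 over the 52.

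Syngeneic microglia were compared with those of untransplanted mice to see what irradiation and transplantation change without an allogeneic attack. The lysosomal genes split: Ids (1.48 ± 0.14), Cd63 (1.13 ± 0.080), Atp6v1g1 (1.06 ± 0.081), Scarb2 (0.87 ± 0.069) and Lamp2 (0.83 ± 0.066) stood among the largest rises, and Sgsh (-2.18 ± 0.18), Neu1 (-1.73 ± 0.16), Idua (-1.45 ± 0.18), Cln3 (-1.43 ± 0.097) and Mcoln1 (-1.33 ± 0.28) had the largest falls. In total 24 rose and 16 fell, beside 26.4% and 25.6% of all tested genes, with a median of 0.15 (all genes -0.028); by library totals, with the median of all genes at -0.20, 15 rose and 21 fell. Syngeneic libraries lay wholly above control for 22 genes and wholly below for 15, where 50.0% of all tested genes were separated in one direction or the other. The share of these genes called, 40 of 52, exceeds that over all genes (52.1%), and the members were chosen with results of these data known.

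Allogeneic against control spans both steps. Here 27 rose and 17 fell, beside 28.2% and 29.1% of all tested genes (57.3% called in either direction), with a median of 0.39 (all genes -0.069). The allogeneic libraries lay wholly above control for 25 and wholly below for 16, where 53.8% of all tested genes were separated. By library totals, with the median of all genes at -0.44, 18 rose and 23 fell. Each group serves in 2 of the 3 comparisons, so these counts are not independent of each other. In bulk libraries such as these, a change in which cells were sorted and a change of RNA within the cells cannot be told apart.

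**Figure D1:**
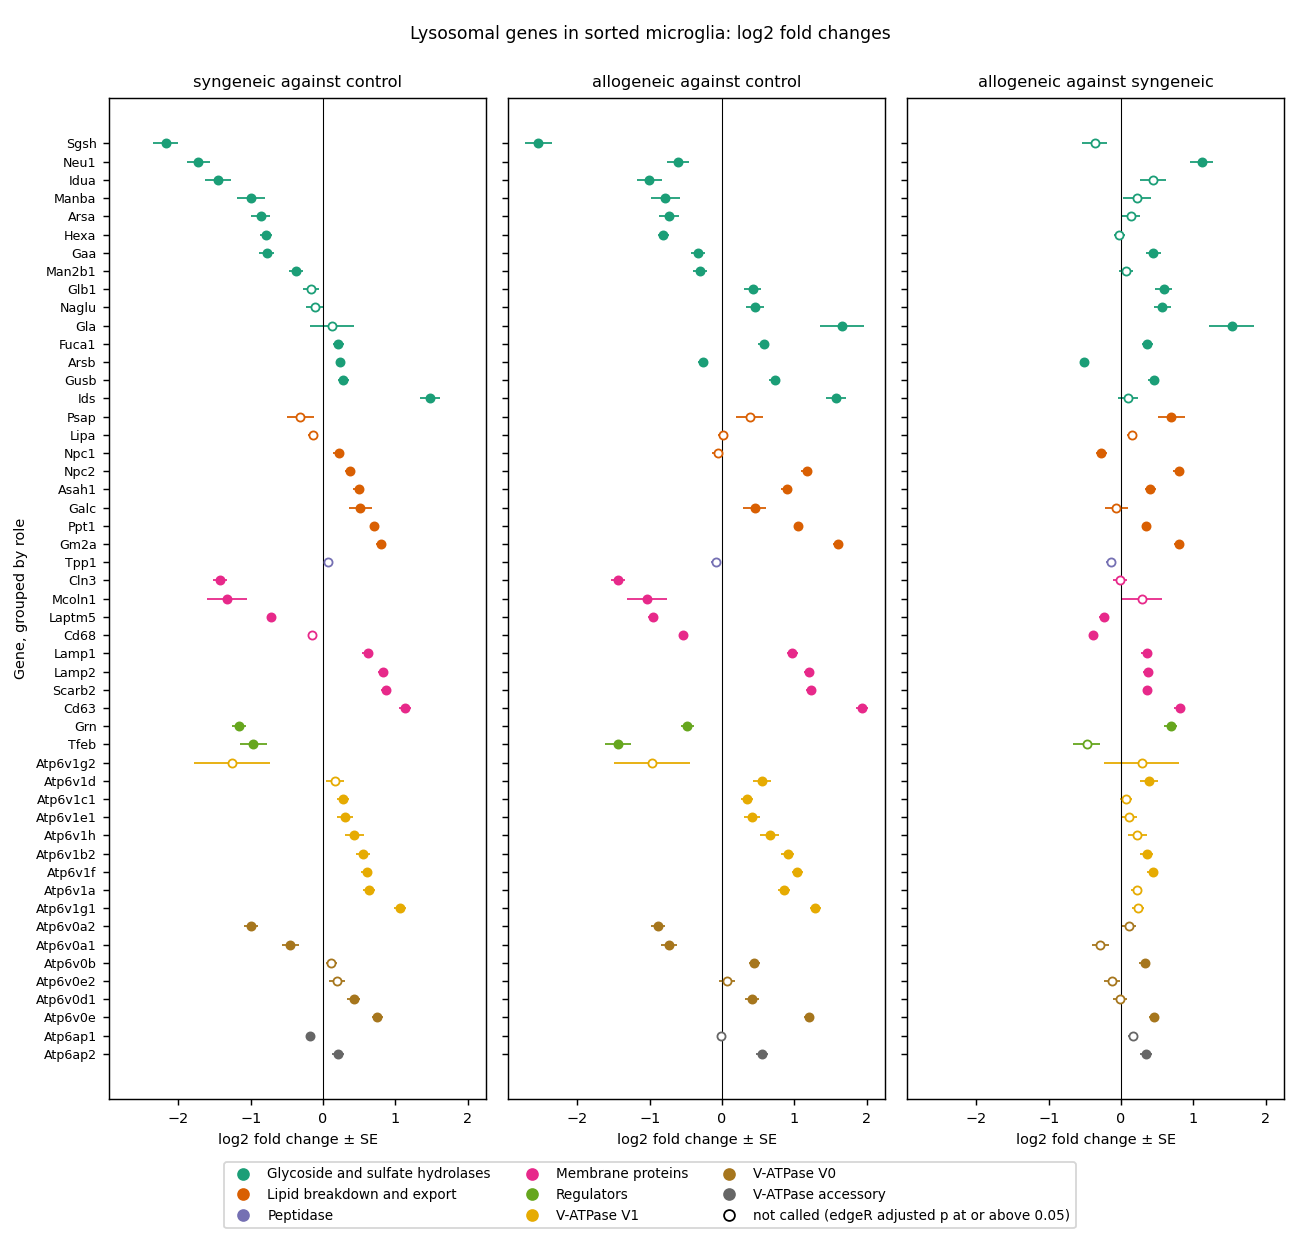
Log2 fold change with SE (x axis) of 51 tested lysosomal genes (y axis, grouped and coloured by role) in the 3 comparisons, each from 4 libraries a group; filled points passed an adjusted p under 0.05 and open points did not. Syngeneic against control spreads from Sgsh at -2.18 to Ids at 1.48, whereas most points of allogeneic against syngeneic lie right of 0; Atp6v1c2, with under 100 counts in each group, is left out.

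Some lists of transcripts that mark other cells moved with the same groups, and others did not. The summed CPM of 10 monocyte and engrafted macrophage markers was 22.005 to 25.2 in control, 53.4 to 82.5 in syngeneic and 333 to 492 in allogeneic libraries, that of 8 border-associated macrophage markers 3.96 to 9.24, 29.6 to 46.5 and 94.1 to 134, and that of 12 choroid plexus markers 21.9 to 147, 1453 to 2535 and 425 to 803. Of the monocyte markers with enough counts, 4 of 9 rose and none fell in allogeneic against syngeneic, and 6 of 9 rose and none fell in syngeneic against control. In allogeneic against control 7 of 9 rose and 1 fell. Ccr2 went against the sum, with means of 9.49, 8.01 and 3.997 CPM in control, syngeneic and allogeneic libraries. Ms4a4c and Plac8 averaged 229 and 77.9 CPM in allogeneic libraries, where the sum of the 10 markers averaged 381. Among border-associated macrophage markers, 1 of 7 rose in allogeneic against syngeneic and 3 of 7 in syngeneic against control. Lyve1 was at 0 in the control and allogeneic libraries. The 1 riser in allogeneic against syngeneic was Siglec1, at 3.61 to 9.99 CPM in syngeneic and 64.6 to 105 in allogeneic libraries, whereas Mrc1, the highest of these markers in syngeneic libraries, averaged 19.2 and 17.8 CPM. Choroid plexus markers rose for 10 of 11 in syngeneic against control and fell for 3 of 11 in allogeneic against syngeneic. Neuron markers rose for 4 of 7 and astrocyte markers for 4 of 6 in syngeneic against control, and none fell. Astrocyte markers summed to 1.47 to 7.91 CPM in control, 24.8 to 41.1 in syngeneic and 25.5 to 41.2 in allogeneic libraries. In the same order neuron markers summed to 1.62 to 3.07, 8.47 to 16.4 and 7.62 to 11.8. Oligodendrocyte markers summed to 145.4 to 152, 114 to 176 and 128 to 144.6. Endothelial markers summed to 13.4 to 25.3, 11.9 to 17.2 and 13.9 to 16.4. T cell markers summed to at most 0.788 CPM in any library. The part of these cells in the changes of lysosomal transcripts was not tested.

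Among the 15 genes whose enzymes cut sugars or sulfate groups from glycans, glycosaminoglycans and glycolipids, syngeneic microglia had less of 8 and more of 4, with a median log2 fold change of -0.37 (by library totals 9 fell and 1 rose, and with an offset for the GC content and length of transcripts 5 fell and 5 rose). Sgsh, the sulfatase that removes N-linked sulfate from heparan sulfate, stood at 70.6, 54.4, 63.5 and 80.1 CPM in the control libraries, 11.7, 17.2, 15.2 and 15.3 in the syngeneic and 9.42, 14.95, 11.3 and 10.5 in the allogeneic. Every transplanted library was below every control library, and syngeneic and allogeneic libraries overlapped. It was 4.52-fold lower in syngeneic than in control (log2 fold change -2.18, SE 0.18, adjusted p = 1.0e-08) and 5.81-fold lower in allogeneic (log2 fold change -2.54, SE 0.18, adjusted p = 8.9e-10), and did not pass the test between the transplanted groups (log2 fold change -0.36, SE 0.17, adjusted p = 0.179), except by library totals (-0.57). In the annotation 21.6% of the exon bases of Sgsh also lie in exons of Card14.

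Idua, the iduronidase that acts on heparan and dermatan sulfate, had 57.5, 61.6, 63.6 and 55.4 CPM in the control libraries, 18.7, 27.5, 19.6 and 21.5 in the syngeneic and 30.7, 40.3, 26.7 and 21.02 in the allogeneic. It fell in syngeneic against control (log2 fold change -1.45, SE 0.18, adjusted p = 1.9e-06), where the libraries did not overlap, and in allogeneic against control (log2 fold change -1.004, SE 0.18, adjusted p = 8.5e-05). Between the transplanted groups it was 0.44 ± 0.18, adjusted p = 0.0978, and passed without syngeneic replicate 2 or allogeneic replicate 4 (adjusted p = 0.0244 to 0.0422). Ids, the sulfatase that works on the same glycosaminoglycans just before Idua, moved the other way, with 22.9, 25.1, 19.4 and 28.4 CPM in the control libraries, 73.2, 58.8, 67.96 and 66.9 in the syngeneic and 80.1, 65.3, 80.6 and 58.7 in the allogeneic. All 8 transplanted libraries lay above the 4 control libraries. Its rise was 2.79-fold in syngeneic (log2 fold change 1.48, SE 0.14, adjusted p = 6.9e-08) and 2.97-fold in allogeneic (log2 fold change 1.57, SE 0.14, adjusted p = 2.0e-08) against control. Manba, the beta-mannosidase, fell in both transplanted groups (-0.999 ± 0.20 and -0.78 ± 0.20), and so did Hexa, the alpha chain of beta-hexosaminidase, from 955 ± 114 CPM (mean ± SD, n = 4) to 554 ± 16.6 in syngeneic and 544 ± 42.9 in allogeneic libraries (-0.79 ± 0.080 and -0.81 ± 0.080).

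Neu1, the lysosomal sialidase, was low after syngeneic transplantation and less low after allogeneic. It was measured at 86.6, 60.5, 77.5 and 59.4 CPM in the control libraries, 19.99, 25.7, 17.4 and 22.8 in the syngeneic and 43.9, 55.6, 44.2 and 41.9 in the allogeneic. The 3 groups did not overlap. Neu1 fell 3.31-fold in syngeneic against control (log2 fold change -1.73, SE 0.16, adjusted p = 4.4e-08) and rose 2.16-fold in allogeneic against syngeneic (log2 fold change 1.11, SE 0.16, adjusted p = 3.6e-05), and its difference from control in the allogeneic group was -0.61 ± 0.15, adjusted p = 0.00221. Gaa, the acid glucosidase that breaks down glycogen, had 309.6, 315, 369 and 266 CPM in the control libraries, 166, 170.2, 203 and 196 in the syngeneic and 214, 278, 261 and 248 in the allogeneic. Syngeneic libraries were below all others, and allogeneic and control libraries overlapped. Its changes were -0.78 ± 0.10, adjusted p = 4.3e-06 in syngeneic against control, and 0.45 ± 0.10, adjusted p = 0.00442 in allogeneic against syngeneic. With the GC and length offset, the allogeneic values of Neu1 and Gaa against control turned to 0.0097 and 0.52, and the fall of Gaa in syngeneic against control did not pass (-0.064, adjusted p = 0.604), while the rises against syngeneic remained past the threshold at 1.11 and 0.59. By library totals that of Gaa did not pass (0.24).

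Gla, the alpha-galactosidase that removes the end sugar of globotriaosylceramide, was nearly level between control and syngeneic and higher in allogeneic microglia, with 10.9, 6.19, 6.21 and 8.53 CPM in the control libraries, 3.66, 11.3, 7.31 and 12.5 in the syngeneic and 28.05, 26.5, 20.6 and 25.1 in the allogeneic. The 4 allogeneic libraries were above the 8 others, which overlapped each other. Gla rose 2.88-fold against syngeneic (log2 fold change 1.53, SE 0.31, adjusted p = 0.00154) and 3.15-fold against control (log2 fold change 1.66, SE 0.31, adjusted p = 1.6e-04), while syngeneic against control was 0.13 ± 0.30, adjusted p = 0.752. Glb1, the beta-galactosidase, and Naglu, the glucosaminidase of heparan sulfate breakdown, also rose in allogeneic against syngeneic (0.59 ± 0.12 and 0.57 ± 0.12) without passing the test in syngeneic against control (-0.17 ± 0.12, adjusted p = 0.246, and -0.12 ± 0.12, adjusted p = 0.451). By library totals Glb1 did pass there, as a fall (-0.33). With the GC and length offset, Naglu in syngeneic against control became 0.58 and passed (adjusted p = 7.4e-04). Gusb, the beta-glucuronidase, and Fuca1, the fucosidase, rose by smaller steps in each comparison: 0.28 ± 0.076 and 0.21 ± 0.078 in syngeneic against control, then 0.45 ± 0.076 and 0.36 ± 0.078 in allogeneic against syngeneic. By library totals neither passed in syngeneic against control (0.11 and 0.047) and Fuca1 did not in allogeneic against syngeneic (0.16), and the first step of Fuca1 was lost without control replicate 2 or 4 or syngeneic replicate 3 or 4 (adjusted p = 0.0508 to 0.0916).

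Arsb, the sulfatase of dermatan and chondroitin sulfate, was the only one of the 15 to fall in allogeneic against syngeneic. Its libraries had 1071, 1138, 1031 and 1048 CPM in the control libraries, 1284, 1212, 1318 and 1243 in the syngeneic and 813, 879, 913 and 955 in the allogeneic. Syngeneic libraries were the highest and allogeneic ones the lowest, with no overlap between any 2 groups. The changes were -0.51 ± 0.061, adjusted p = 5.9e-06 for allogeneic against syngeneic, 0.24 ± 0.061, adjusted p = 0.00292 for syngeneic against control, and -0.27 ± 0.061, adjusted p = 9.7e-04 for allogeneic against control, the last of which became 0.052 with the GC and length offset, and the second did not pass by library totals (0.069). Exons of 2 predicted genes cover 39.9% of the exon bases annotated for Arsb, so its count is uncertain. Arsa, the sulfatase of the myelin lipid sulfatide, fell in syngeneic and allogeneic against control (-0.86 ± 0.13 and -0.73 ± 0.13), and Man2b1, the alpha-mannosidase, fell less (-0.37 ± 0.094 and -0.31 ± 0.093). Neither gene passed between the transplanted groups (0.13 ± 0.13, adjusted p = 0.584, and 0.066 ± 0.093, adjusted p = 0.719). With the offset, Arsa no longer passed against control in either group (-0.25 and -0.055), and Man2b1 turned to 0.073 and 0.21. In the whole set of 15, 7 rose and 1 fell in allogeneic against syngeneic (5 and 3 by library totals), and 6 rose and 9 fell in allogeneic against control (8 and 4 with the GC and length offset).

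The 8 genes of lipid breakdown and export rose more evenly: 6 rose and none fell in syngeneic against control (4 and 2 by library totals), and 5 rose and 1 fell in allogeneic against syngeneic (2 and 1). Gm2a encodes the activator that lifts the ganglioside GM2 out of membranes for beta-hexosaminidase. It stood at 549.6, 511, 511 and 511 CPM in the control libraries, 890.0, 949.6, 903 and 885 in the syngeneic and 1533, 1824, 1418 and 1547 in the allogeneic. The 3 groups were separate and ordered control, syngeneic, allogeneic. Both steps had the same size, 0.80 ± 0.069, adjusted p = 2.2e-08 for syngeneic against control, and 0.80 ± 0.069, adjusted p = 7.6e-08 for allogeneic against syngeneic, so that allogeneic was 3.04-fold above control. Hexa, the enzyme chain it serves, fell against control, as given above.

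Npc2 and Npc1 pass cholesterol out of the lysosome, Npc2 as the soluble carrier and Npc1 as the membrane protein that receives it. Npc2 had 893, 796, 786 and 682 CPM in the control libraries, 928, 1073, 987 and 1101 in the syngeneic and 1749.9, 1813, 1779 and 1751 in the allogeneic. Allogeneic libraries were above all others, and the rise was 0.79 ± 0.075, adjusted p = 2.4e-07 against syngeneic, with 0.37 ± 0.074, adjusted p = 3.6e-04 for syngeneic against control. Npc1 had 207, 209, 239 and 221 CPM in the control libraries, 259, 231, 248 and 281 in the syngeneic and 212, 218, 207 and 204 in the allogeneic. It was lower in allogeneic than in every syngeneic library, with a log2 difference of -0.28 ± 0.075, adjusted p = 0.0153, and its call in syngeneic against control (0.22 ± 0.075, adjusted p = 0.0218) was lost without control replicate 1 or 2 or syngeneic replicate 1 or 4 (adjusted p = 0.0501 to 0.0774) and by library totals (0.048). Its fall in allogeneic against syngeneic did not pass with the GC and length offset (-0.17, adjusted p = 0.114).

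Asah1, the acid ceramidase, rose from 579 ± 72.98 CPM in control to 814 ± 21.6 in syngeneic and 1075 ± 48.3 in allogeneic libraries (0.49 ± 0.077 for the first step and 0.40 ± 0.077 for the second). Ppt1, the thioesterase that takes fatty acids off proteins, went from 440.0 ± 21.8 to 718 ± 37.1 and 913 ± 33.9 (0.71 ± 0.061 and 0.35 ± 0.061). By library totals the second step did not pass for either gene (0.20 and 0.15). Galc, which degrades the myelin lipid galactosylceramide, rose in syngeneic against control (0.52 ± 0.16, adjusted p = 0.0115) and differed by -0.066 ± 0.16, adjusted p = 0.848 between the transplanted groups. In allogeneic against control Galc passed at 0.45 ± 0.16, adjusted p = 0.0229, and lost that call without control replicate 2 or 3 or allogeneic replicate 2 or 4 (adjusted p = 0.0513 to 0.106). By library totals Galc passed against control in neither group (0.35 in syngeneic and 0.082 in allogeneic). Lipa, the acid lipase for cholesteryl esters and triglycerides, did not pass in any of the 3 comparisons (-0.14 ± 0.072 in syngeneic against control, 0.15 ± 0.072 in allogeneic against syngeneic, 0.015 ± 0.072 in allogeneic against control). It did pass as a fall in syngeneic against control by library totals (-0.31, adjusted p = 0.00231) and with the GC and length offset (-0.30, adjusted p = 0.00156), and in allogeneic against control by library totals (-0.36).

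Psap, the precursor of the saposins that present sphingolipids to their hydrolases, varied more between replicates than most of the set. Its libraries held 3757, 3093, 1964 and 1972 CPM in the control libraries, 2006, 2013, 2186 and 2483 in the syngeneic and 3239, 3905, 3377 and 3521 in the allogeneic. All allogeneic libraries were above all syngeneic ones, and the control libraries spread over both. The allogeneic rise against syngeneic (log2 fold change 0.69, SE 0.18, adjusted p = 0.0222) lost its call without syngeneic replicate 1, 2 or 3 or allogeneic replicate 2 (adjusted p = 0.0541 to 0.0585), scaled by library totals (0.49, adjusted p = 0.067), and without the filter on low counts. Against control it did not pass (0.38 ± 0.18, adjusted p = 0.0977), but did without control replicate 1 (adjusted p = 0.00412) and with the GC and length offset (0.85, adjusted p = 8.2e-04). Syngeneic against control (-0.31 ± 0.18, adjusted p = 0.182) passed without control replicate 3 (adjusted p = 0.0464) and by library totals (-0.47, adjusted p = 0.0403). Tpp1, the serine peptidase of the set, stood at 665 ± 42.5, 695 ± 61.3 and 629 ± 25.6 CPM in control, syngeneic and allogeneic libraries, and passed in no comparison (0.063 ± 0.070 in syngeneic against control, -0.14 ± 0.070 in allogeneic against syngeneic). By library totals it was lower in allogeneic than in syngeneic (-0.35, adjusted p = 5.9e-04) and control libraries (-0.45, adjusted p = 7.4e-06).

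The 8 membrane proteins moved in opposite directions. Cd63, a tetraspanin of late endosomes and lysosomes, Lamp1 and Lamp2, the glycoproteins that line the lysosomal membrane, and Scarb2, a sorting receptor of the same membrane, rose in all 3 comparisons. Cd63 was measured at 303, 227, 228 and 256 CPM in the control libraries, 552, 537, 544 and 585 in the syngeneic and 983, 982, 931 and 989 in the allogeneic. The groups did not overlap, and allogeneic libraries stood 3.83-fold above control (log2 fold change 1.94, SE 0.082, adjusted p = 5.8e-13), in steps of 1.13 ± 0.080 for syngeneic against control and 0.81 ± 0.080 for allogeneic against syngeneic. Of the 50-base segments of the Cd63 transcript, 38.2% also occur in the pseudogene Cd63-ps, so its count depends on how shared reads were treated.

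Lamp2 had 706, 610.2, 666 and 581 CPM in the control libraries, 1165, 1159.5, 1150.1 and 1073 in the syngeneic and 1563, 1486, 1426 and 1417 in the allogeneic. Here too no group overlapped another, with 0.83 ± 0.066, adjusted p = 6.9e-09 for syngeneic against control, and 0.37 ± 0.065, adjusted p = 3.9e-04 for allogeneic against syngeneic. Lamp1 rose from 284 ± 30.3 CPM in control to 435 ± 18.96 in syngeneic and 557 ± 39.9 in allogeneic libraries (0.62 ± 0.078 and 0.36 ± 0.078), and Scarb2 from 115 ± 4.11 to 209.6 ± 7.13 and 269.9 ± 14.9 (0.87 ± 0.069 and 0.36 ± 0.069). By library totals the second step of Lamp1 and of Scarb2 did not pass (0.15 and 0.16).

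Cln3, the membrane protein lost in juvenile Batten disease, carries the longest CLEAR-like match printed above and was lower after both transplantations. Its values were 189, 189, 186 and 161 CPM in the control libraries, 67.5, 59.95, 78.2 and 62.8 in the syngeneic and 68.4, 63.7, 64.7 and 69.2 in the allogeneic. The control libraries lay far above the other 8, which overlapped. Cln3 was 2.70-fold lower in syngeneic (log2 fold change -1.43, SE 0.097, adjusted p = 9.1e-10) and 2.72-fold lower in allogeneic microglia (log2 fold change -1.44, SE 0.097, adjusted p = 4.1e-10), and the transplanted groups differed by -0.013 ± 0.096, adjusted p = 0.957. Mcoln1, the calcium channel TRPML1 of the lysosome, was rare, at 16.7, 18.3, 12.1 and 16.5 CPM in the control libraries, 5.51, 5.69, 8.90 and 5.26 in the syngeneic and 7.09, 11.3, 7.75 and 4.86 in the allogeneic. It fell in both groups against control (-1.33 ± 0.28, adjusted p = 5.9e-04 in syngeneic, and -1.04 ± 0.28, adjusted p = 0.00372 in allogeneic, the latter not past the threshold with the GC and length offset at -0.63).

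Laptm5, a lysosomal membrane protein, was the most abundant of these genes. It had 9425, 8301, 9133 and 8960.2 CPM in the control libraries, 5179, 5241, 5467 and 5882 in the syngeneic and 4318, 4385, 4879 and 4819 in the allogeneic. Control libraries were above all others, and allogeneic below syngeneic, without overlap. Its fall was -0.72 ± 0.059, adjusted p = 1.2e-08 in syngeneic against control, and -0.24 ± 0.059, adjusted p = 0.00709 in allogeneic against syngeneic. Cd68, a macrophage glycoprotein of late endosomes that is often used to mark phagocytic microglia, had 1148, 1011, 987 and 931 CPM in the control libraries, 914, 910.0, 937 and 921 in the syngeneic and 706, 703, 706 and 699.5 in the allogeneic. The allogeneic libraries were the lowest and nearly equal. Cd68 fell in allogeneic against syngeneic (log2 fold change -0.39, SE 0.062, adjusted p = 1.5e-04) and against control (log2 fold change -0.53, SE 0.062, adjusted p = 6.4e-07). In syngeneic against control it was just short of the threshold (-0.15 ± 0.062, adjusted p = 0.0534), and passed without control replicate 4 (adjusted p = 0.0161), by library totals (-0.31), with the GC and length offset and with limma-voom (adjusted p = 0.0471 and 0.0353). It also passed there with the filter of at least 1 CPM in 4 libraries (adjusted p = 0.0482). Per kb of transcript, Laptm5 led the set in each group, with 3444 ± 183, 2093 ± 122 and 1769 ± 111 CPM per kb in control, syngeneic and allogeneic libraries, followed by Grn (1199 ± 111) and Psap (1015 ± 333) in control, and by Psap (1321 ± 108) and Cd63 (914 ± 25.3) in allogeneic libraries. Within control, Grn and Psap differed by less than the spread of Psap.

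Of the regulators, Tfeb encodes the transcription factor that binds CLEAR elements and Grn encodes progranulin, which is cleaved in lysosomes and supports hydrolase function. Tfeb was low throughout, at 26.2, 33.96, 34.3 and 27.9 CPM in the control libraries, 13.6, 18.6, 18.2 and 12.4 in the syngeneic and 9.96, 11.3, 10.8 and 13.01 in the allogeneic. Each transplanted library was below each control library, and the transplanted groups overlapped. Tfeb fell 1.95-fold in syngeneic (log2 fold change -0.96, SE 0.18, adjusted p = 2.1e-04) and 2.71-fold in allogeneic against control (log2 fold change -1.44, SE 0.18, adjusted p = 2.3e-06), and with the GC and length offset the syngeneic fall no longer passed (-0.32). Between the transplanted groups it was -0.48 ± 0.18, adjusted p = 0.084, and passed without syngeneic replicate 4 (adjusted p = 0.0454) and by library totals (-0.68). Its relatives in the fixed lists did not all follow: Tfe3 fell and Mitf rose in both transplanted groups against control, and Tfec passed in no comparison.

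Grn was one of the more abundant transcripts, at 3025, 2519.7, 3026 and 2655 CPM in the control libraries, 1040.5, 1292, 1165 and 1507 in the syngeneic and 1839, 2087, 2134 and 1986 in the allogeneic. The groups were separate, with syngeneic lowest. Grn was 2.24-fold lower in syngeneic than in control (log2 fold change -1.17, SE 0.094, adjusted p = 9.2e-09) and rose 1.61-fold in allogeneic against syngeneic (log2 fold change 0.69, SE 0.094, adjusted p = 2.7e-05). Allogeneic libraries remained below control (-0.48 ± 0.093, adjusted p = 2.4e-04), a difference that the GC and length offset brought to 0.019. With TMM factors, Grn, Neu1 and Gaa were the 3 genes that fell in syngeneic against control and rose in allogeneic against syngeneic. Other genes, such as Psap, Naglu and Idua, also had their lowest mean CPM in the syngeneic group without both calls.

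**Figure D2:**
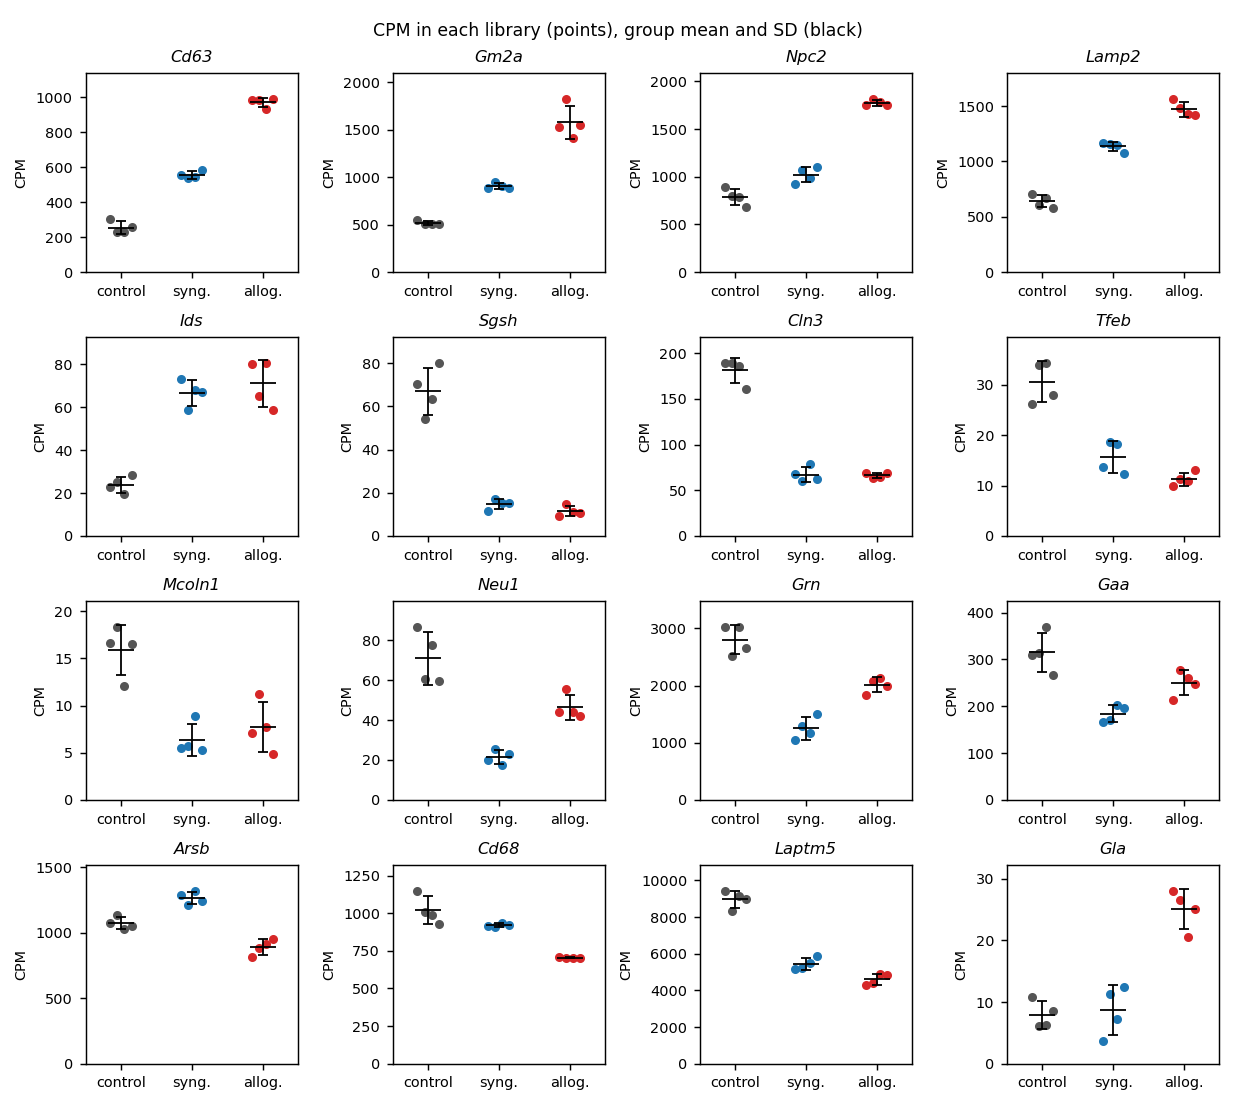
CPM (y axis, linear, from 0) of 16 lysosomal genes in each library (points) of the control, syngeneic and allogeneic groups, with group mean and SD (n = 4) in black. Cd63, Gm2a and Lamp2 step up from control to allogeneic, Ids, Sgsh, Cln3 and Mcoln1 change between control and the transplanted groups, and Neu1, Grn and Gaa are lowest in the syngeneic libraries.

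More V-ATPase genes rose than fell against control in both transplanted groups. In V1, the ATP-splitting sector, 7 of 10 tested genes rose in syngeneic against control and 8 in allogeneic against control, and none fell. Of all tested genes 26.4% and 28.2% rose in these comparisons. By library totals 4 rose and 1 fell in each, and with the GC and length offset 4 rose and none fell in each. That offset took the V1 median log2 fold change from 0.37 to 0.066 in syngeneic and from 0.60 to 0.24 in allogeneic against control. Atp6v1g1, a stalk subunit, had 169, 178, 189.9 and 186 CPM in the control libraries, 431, 383, 368 and 326 in the syngeneic and 431, 415, 459 and 465 in the allogeneic. All 8 transplanted libraries were above all control libraries, with 1.06 ± 0.081, adjusted p = 4.0e-09 for syngeneic, and 1.29 ± 0.081, adjusted p = 1.5e-10 for allogeneic against control. Between the transplanted groups it was 0.23 ± 0.080, adjusted p = 0.0556, and it passed with RLE factors, DESeq2, limma-voom and the filter of at least 1 CPM in 4 libraries (adjusted p = 0.039, 0.0207, 0.0389 and 0.0497) and without syngeneic replicate 1 (adjusted p = 0.0149). Pseudogenes share 19.2% of the 50-base segments of its transcript.

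Atp6v1a and Atp6v1b2 encode the A and B subunits that form the catalytic ring. Atp6v1a had 77.003, 72.8, 87.9 and 73.8 CPM in the control libraries, 120.1, 122, 124 and 119 in the syngeneic and 141, 135, 144 and 142 in the allogeneic. The 3 groups did not overlap. It rose against control in syngeneic (0.64 ± 0.082, adjusted p = 3.1e-06) and allogeneic libraries (0.85 ± 0.082, adjusted p = 5.7e-08), while allogeneic against syngeneic was 0.21 ± 0.081, adjusted p = 0.0831, and passed with DESeq2 and with the GC and length offset (adjusted p = 0.0161 and 0.0352). Atp6v1b2 had 100.3, 109.6, 122 and 109 CPM in the control libraries, 168, 170.5, 143 and 165 in the syngeneic and 179, 229.8, 218 and 199 in the allogeneic. Its rises were 0.55 ± 0.093, adjusted p = 7.0e-05 in syngeneic against control, and 0.35 ± 0.093, adjusted p = 0.012 in allogeneic against syngeneic, where the call was lost without syngeneic replicate 3 (adjusted p = 0.0506). Atp6v1b1, the other B subunit gene, had no count.

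Atp6v1f, a subunit of the central stalk, went from 152 ± 11.96 CPM in control to 231 ± 14.1 in syngeneic and 312 ± 11.8 in allogeneic libraries (0.61 ± 0.074 and 0.43 ± 0.074). Another gene shares 18.2% of the 50-base segments of its transcript, and its second step did not pass with the GC and length offset (0.095). Atp6v1d, which forms the rotor with it, rose in allogeneic against syngeneic (0.39 ± 0.12, adjusted p = 0.0376), a call lost without syngeneic replicate 1, 3 or 4 or allogeneic replicate 3 (adjusted p = 0.0718 to 0.15). Atp6v1h, a regulatory subunit, rose in syngeneic against control (0.43 ± 0.13, adjusted p = 0.0106) and lost the call without syngeneic replicate 2 (adjusted p = 0.0584). Atp6v1e1, a peripheral stalk subunit, rose by 0.31 ± 0.11, adjusted p = 0.0272, and lost the call without control replicate 3 or 4 or syngeneic replicate 2 or 3 (adjusted p = 0.0696 to 0.0957). Atp6v1c1, which bridges the stalks, rose by 0.28 ± 0.081, adjusted p = 0.00774. By library totals Atp6v1c1, Atp6v1e1 and Atp6v1h no longer passed in syngeneic against control (0.11, 0.14 and 0.26), and with the GC and length offset they stood at -0.016, 0.071 and 0.061.

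Atp6v1g2 and Atp6v1c2, isoforms known from neurons and from lung and kidney, were the rarest of the 52 tested genes. Atp6v1g2 had 4.89 ± 1.31 CPM in control, 2.05 ± 0.909 in syngeneic and 2.49 ± 1.57 in allogeneic libraries, and did not pass against control (-1.25 ± 0.53, adjusted p = 0.0542 in syngeneic, and -0.97 ± 0.52, adjusted p = 0.122 in allogeneic). It did pass in syngeneic without control replicate 2 or syngeneic replicate 4 (adjusted p = 0.0282 to 0.0463), and in allogeneic without allogeneic replicate 4 (adjusted p = 0.0459). By library totals it passed in both (-1.42 and -1.34), as it did with limma-voom, and in syngeneic also with DESeq2 (adjusted p = 0.0308). In syngeneic it passed as well with only the 2 compared groups (adjusted p = 0.0227) and with the replicate block (adjusted p = 0.0427). Atp6v1c2 had 97, 8 and 53 counts in all over the control, syngeneic and allogeneic libraries. Its 8 syngeneic counts came from replicate 3 alone.

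In V0, the membrane sector, 2 of 6 tested genes rose and 2 fell in syngeneic against control, and 3 rose and 2 fell in allogeneic against control (1 and 3 by library totals). With the GC and length offset 4 rose and 1 fell in the first comparison, and 3 rose and 1 fell in the second. Of all tested genes 26.4% and 25.6% rose and fell in the first, not far from the V0 counts with TMM factors, and 28.2% and 29.1% in the second. Atp6v0e, a small subunit of the complex, had 223, 194, 199 and 212 CPM in the control libraries, 355, 375, 351 and 313 in the syngeneic and 494, 497, 452 and 464 in the allogeneic. The groups did not overlap and its steps were 0.75 ± 0.072, adjusted p = 8.4e-08 for syngeneic against control, and 0.45 ± 0.071, adjusted p = 1.4e-04 for allogeneic against syngeneic, the latter short of the threshold with the GC and length offset (0.14). Its sister gene Atp6v0e2 did not pass in syngeneic or allogeneic against control (0.20 ± 0.11 and 0.073 ± 0.11). The former passed with the GC and length offset (0.41, adjusted p = 0.00454), and the latter as a fall by library totals (-0.30). Atp6v0e took 87.9% ± 1.04 of the CPM per kb of both e subunit genes in control, 91.4% ± 0.474 in syngeneic and 94.1% ± 0.612 in allogeneic libraries (SD, n = 4). Atp6v0b, a ring subunit, rose in allogeneic against syngeneic (0.33 ± 0.078, adjusted p = 0.00578; 0.080 with the offset), and Atp6v0d1, which links ring and stalk, rose in both transplanted groups against control (0.42 ± 0.096 and 0.41 ± 0.096, the latter not past the threshold by library totals at 0.038).

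The genes of the a subunit, the large protein that forms the proton path and guides the pump to its membrane, fell against control. There, more genes of the pump rose than fell. Atp6v0a1 had 156, 167, 205 and 179 CPM in the control libraries, 133, 117, 131 and 136 in the syngeneic and 129, 112, 94.4 and 89.1 in the allogeneic. Control libraries were the highest, without overlap with either transplanted group. The fall was -0.45 ± 0.11, adjusted p = 0.00262 in syngeneic, and -0.74 ± 0.11, adjusted p = 2.0e-05 in allogeneic against control, and neither passed with the GC and length offset (-0.031 and -0.24). Between the transplanted groups Atp6v0a1 differed by -0.29 ± 0.11, adjusted p = 0.096, which passed without allogeneic replicate 1 (adjusted p = 0.019) and by library totals (-0.49). Atp6v0a2 had 163, 203, 196 and 176 CPM in the control libraries, 108, 80.5, 87.1 and 94.99 in the syngeneic and 99.1, 94.5, 108 and 97.04 in the allogeneic. Again every control library was above the others, with a fall of -0.99 ± 0.10, adjusted p = 1.7e-07 in syngeneic, and -0.89 ± 0.10, adjusted p = 4.9e-07 in allogeneic microglia.

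Tcirg1, the gene of the a3 subunit, lies outside the Atp6v naming and came from the fixed list of lysosomal transport genes. Of the a subunit genes it showed the largest change: 589 ± 80.8 CPM in control (mean ± SD, n = 4), 52.1 ± 7.36 in syngeneic and 64.3 ± 7.44 in allogeneic libraries (log2 fold change -3.50, SE 0.12, adjusted p = 4.5e-13 for syngeneic against control). With the GC and length offset the log2 fold change was -2.79 in syngeneic and -2.41 in allogeneic against control. Per kb of transcript, Tcirg1 took 73.1% ± 3.92 of the summed a subunit level in control, 27.8% ± 3.38 in syngeneic and 34.3% ± 2.33 in allogeneic libraries (SD, n = 4). Atp6v0a1 took 15.2% ± 2.68, 47.0% ± 1.43 and 38.4% ± 3.03, and Atp6v0a2 11.8% ± 1.42, 25.2% ± 2.49 and 27.4% ± 3.49 in the same order. The range of the Tcirg1 share, 69.8% to 77.8% in control, did not meet that of the syngeneic (23.3% to 30.4%) or allogeneic libraries (31.2% to 36.5%).

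**Figure D3:**
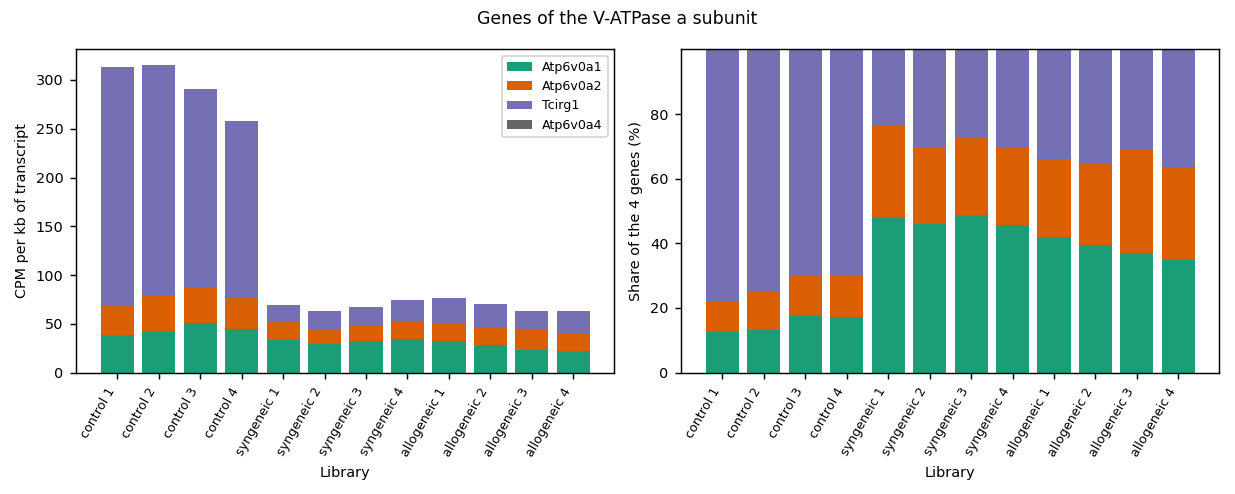
Levels of the V-ATPase a subunit genes in each library, as stacked bars of CPM per kb of transcript (left, from 0) and as shares of their sum in percent (right). Tcirg1 takes 69.8% to 77.8% in the 4 control libraries and 23.3% to 36.5% in the 8 transplanted ones; Atp6v0a4 is too rare to be seen.

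The accessory subunits Atp6ap1, which assists assembly, and Atp6ap2, the (pro)renin receptor, moved differently. Atp6ap1 fell in syngeneic against control (-0.17 ± 0.061, adjusted p = 0.0234), a call lost without control replicate 1 or 3 or syngeneic replicate 3 or 4 (adjusted p = 0.0551 to 0.067), and it turned to 0.040 with the GC and length offset. In allogeneic against control Atp6ap1 did not pass (-0.012). It passed there as a fall by library totals (-0.38, adjusted p = 9.6e-06) and as a rise with the offset (0.15, adjusted p = 0.0389). Atp6ap2 rose from 259 ± 10.5 CPM in control to 299 ± 24.1 in syngeneic and 381 ± 40.3 in allogeneic libraries. Its rise in allogeneic against control was 0.56, and did not pass with the GC and length offset (0.11). Its first step (0.21 ± 0.081, adjusted p = 0.0387) lost the call without control replicate 1, 3 or 4 or syngeneic replicate 1 or 2 (adjusted p = 0.0503 to 0.145) or without the filter on low counts, and by library totals (0.039), and became -0.14 with the offset, and its second step was 0.35 ± 0.081, adjusted p = 0.00496. Of the 18 tested V-ATPase genes, 6 rose and none fell in allogeneic against syngeneic, and 10 rose and 3 fell in syngeneic against control. Of all tested genes 10.1% and 6.38% rose and fell in the first of these comparisons, and 26.4% and 25.6% in the second. With the GC and length offset 4 rose and none fell in the first, and 8 rose and 1 fell in the second. By library totals 2 rose and 2 fell in the first comparison, where Atp6v0b, Atp6v1b2, Atp6v1d and Atp6ap2 no longer passed, and 6 rose and 4 fell in the second.

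**Figure D4:**
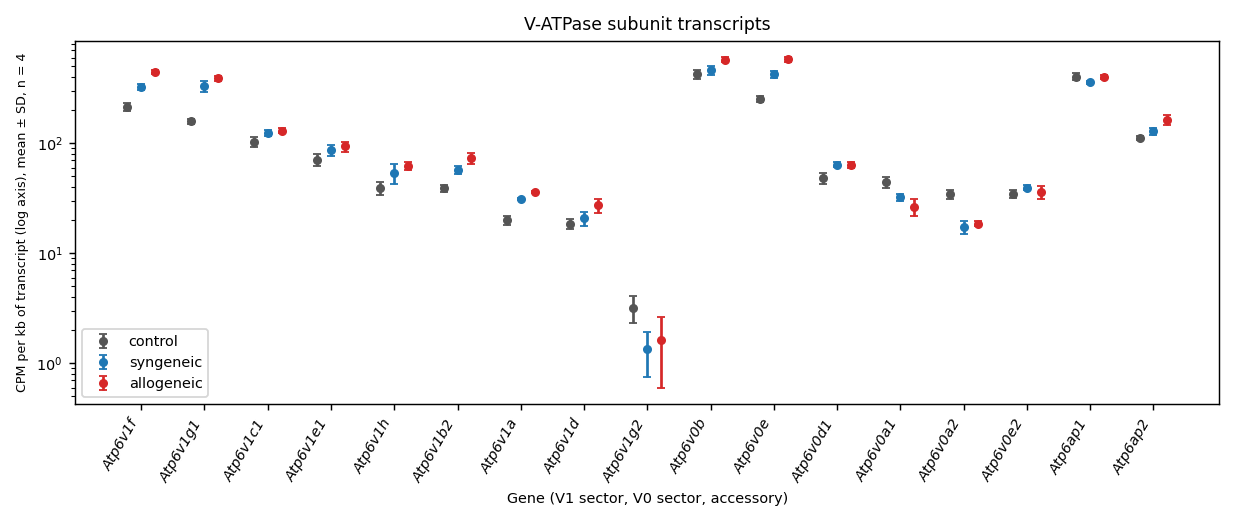
CPM per kb of transcript (log axis, mean ± SD, n = 4) of 17 tested V-ATPase genes, ordered as V1, V0 and accessory subunits, in control, syngeneic and allogeneic libraries. Most V1 genes climb from control to allogeneic, as Atp6v1f does from 216 ± 17.01 to 444 ± 16.8, while Atp6v0a1 and Atp6v0a2 descend; Atp6v1c2 is left out for its low counts.

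The direction of change against control went with the base composition of the transcripts. Genes that rose in syngeneic against control had a median GC content of 48.7% and those that fell 55.5%, beside 50.4% over 12610 tested genes with a known transcript. Across the 52 genes, which share their libraries and are not independent replicates, Spearman's rho between log2 fold change and GC content was -0.56 in syngeneic against control and -0.51 in allogeneic against control, and 0.029 in allogeneic against syngeneic; over all tested genes it was -0.31, -0.29 and -0.048. With the GC and length offset rho over the 52 was -0.25, -0.22 and -0.022. Under that offset 23 rose and 12 fell in syngeneic against control, 27 and 9 in allogeneic against control, and 21 and 3 in allogeneic against syngeneic. Sgsh, Neu1, Idua and Cln3 kept their falls in syngeneic against control, at -1.58, -1.10, -1.02 and -1.20, and Ids and Cd63 their rises, at 1.17 and 1.23.

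**Figure D5:**
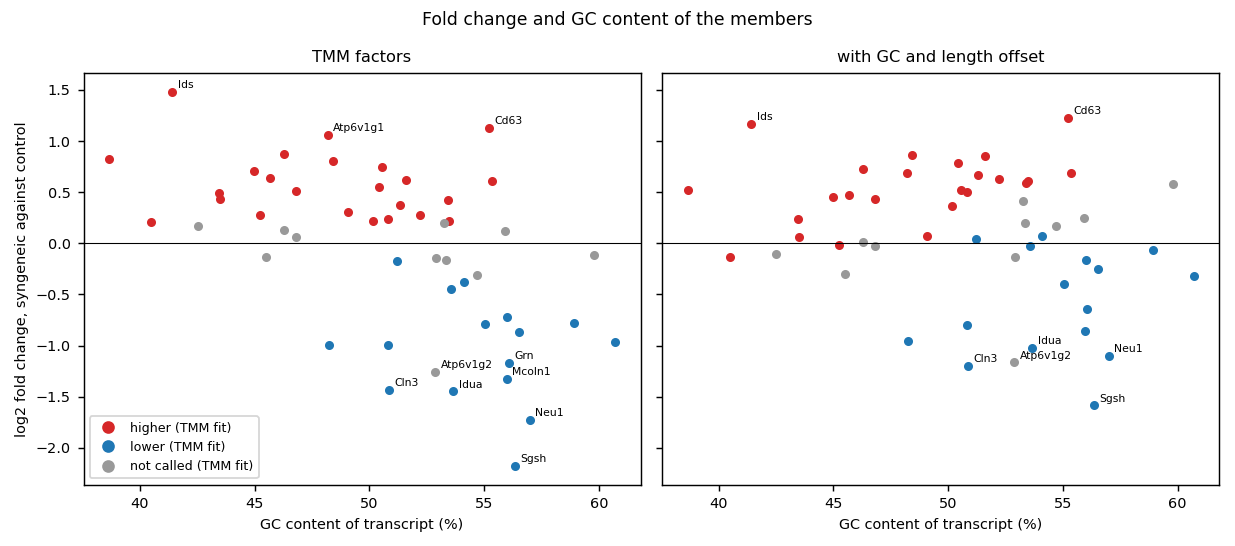
Log2 fold change of syngeneic against control (y axis) and GC content of the transcript in percent (x axis) for 51 tested lysosomal genes, with TMM factors (left) and with an offset for GC content and length (right). Colours show the calls of the TMM analysis; the downward slope on the left (rho -0.56 over 52 genes) is weaker on the right (rho -0.25), and Atp6v1c2 is left out for its low counts.

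Other lysosome genes, in lists of 105 symbols of which 100 could be tested, changed in the same 3 comparisons as follows: 20 rose and 5 fell in allogeneic against syngeneic (10 and 18 by library totals), 31 rose and 44 fell in syngeneic against control (25 and 47), and 38 rose and 41 fell in allogeneic against control (21 and 50). Of all tested genes 10.1% and 6.38% rose and fell in the first of these comparisons, 26.4% and 25.6% in the second and 28.2% and 29.1% in the third. With the GC and length offset 18 of the 100 rose and 6 fell in the first, 27 and 30 in the second and 32 and 30 in the third. That offset took their median log2 fold change in the second from -0.22 to 0.049. Among 26 further genes, listed as lysosomal hydrolases though not all of them are, 10 rose and 2 fell in allogeneic against syngeneic. They included Scpep1, a serine carboxypeptidase (0.99 ± 0.14), and Hpse, the heparanase, at 7.60 ± 1.76 against 0.305 ± 0.304 CPM (4.63 ± 0.92, adjusted p = 0.00135). In syngeneic against control 5 of the 26 rose and 15 fell (7 and 10 with the GC and length offset). Among those that fell were Pla2g15, a lysosomal phospholipase, from 1128 ± 112 to 404 ± 12.4 CPM (-1.48 ± 0.084), and Dnase2a, the acid nuclease (-1.67 ± 0.13). Ggh, which trims folate chains, rose (1.42 ± 0.11).

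Of 28 transporters and channels, 15 fell and 5 rose in syngeneic against control (12 and 4 with the GC and length offset). Besides Tcirg1, Spns1, a lysosomal lipid transporter, fell (-2.31 ± 0.13), as did Slc11a1, the metal exporter of phagosomes (-1.33 ± 0.079), which was higher in allogeneic than in syngeneic libraries (0.77 ± 0.078). Tpcn1, a cation channel, and Cd164, a sialomucin, fell in allogeneic against syngeneic (-1.02 ± 0.15 and -0.42 ± 0.071). Of 13 genes that tag or sort hydrolases, 6 rose and 5 fell in syngeneic against control (5 and 2 with the GC and length offset). The retromer genes Vps26a (1.23 ± 0.11), Vps29 (1.13 ± 0.081) and Vps35 (0.84 ± 0.069) rose there, and the adaptor Gga3 fell (-2.14 ± 0.20). Gga3 also fell in allogeneic against control (-2.63 ± 0.21). Between the transplanted groups it did not pass (-0.48 ± 0.20, adjusted p = 0.108), except by library totals (-0.68). M6pr, the small mannose 6-phosphate receptor that delivers hydrolases, rose in allogeneic against syngeneic (0.60 ± 0.097), and so did Gnptab, which makes the tag (0.69 ± 0.21, adjusted p = 0.0281; not past the threshold by library totals at 0.49).

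Among 21 tested genes of nutrient sensing and TFEB control, 8 rose and 6 fell in syngeneic against control, beside 26.4% and 25.6% of all tested genes, shares not far from those of the list. The mTORC1 activator Rheb rose (1.71 ± 0.14), as did Lamtor2, part of the scaffold that holds mTORC1 at the lysosome (0.80 ± 0.094), and Flcn, a Rag GTPase regulator, fell (-1.69 ± 0.11). In allogeneic against syngeneic 2 rose, Lamtor2 (0.41 ± 0.093) and Lamtor5 (0.39 ± 0.11), and Tsc2 fell (-0.64 ± 0.20, adjusted p = 0.0348). By library totals none of the 21 rose and 7 fell, and with the GC and length offset neither Lamtor gene passed (0.093 and 0.094), nor did Tsc2 (-0.52). Of 12 V-ATPase assembly genes, 7 rose and 3 fell in syngeneic against control. Vma21, a chaperone of V0 assembly (1.68 ± 0.13), and Tmem9b (1.42 ± 0.11) rose, and Rogdi, part of a complex that joins V1 to V0, fell (-1.31 ± 0.11). Ncoa7 alone of these 12 passed in allogeneic against syngeneic (1.28 ± 0.23, adjusted p = 4.6e-04). Tmem9b did not pass there with TMM factors (-0.23 ± 0.10, adjusted p = 0.157). It did pass as a fall by library totals (-0.43, adjusted p = 0.00772) and with the GC and length offset (-0.35, adjusted p = 0.0327).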

How the data were processed

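The authors deposited 1 table of raw counts per gene symbol for the 12 libraries. Per the labels' protocols, RNA came from sorted cells by the Picopure kit, with an integrity value of at least 8; per the submitters' processing notes, Trimmomatic 0.36, STAR 2.5.2b and the build mm9 were used. The sources used here do not give the counting tool, annotation or strand setting, so overlapping genes and near-identical copies are uncertain.

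From these counts, edgeR 4.0.16 in R 4.3.3 (TMM factors; low counts removed by filterByExpr, minimum count 10; robust quasi-likelihood model of the 12 libraries with a mean per group) tested 12695 of 18018 genes with a count; p-values were adjusted by Benjamini-Hochberg over all of them, with a call under 0.05. The method was tested on simulated data. Transcript lengths and GC content are from GENCODE M21 (12610 tested genes, 99.3%), using symbols matched directly (23298) or by synonym (648). Alternatives were RLE factors, library totals, 2 other filters (none, or at least 1 CPM in 4 libraries), DESeq2 1.42.0, limma-voom (limma 3.58.1), only the compared groups, leaving out each library in turn, a block for the replicate number and a GC and length offset (loess span 0.3). Spearman correlations between replicates were 0.975 to 0.984. Each group holds 4 mice, whose number limits the precision. Every one of the 59 genes may be named, and from each list of other lysosome genes up to 3 per comparison with the smallest p; Tfe3, Mitf and Tfec were named after their calls were seen, and a gene that this rule names is not reported here. The genes and lists were chosen with earlier results of these data known.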

Additional observations from a re-analysis of the deposited data

Results flagged for a closer look

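Of 156 groups of 4 libraries (52 tested genes in 3 groups), 14 held a library whose gap to the nearest other exceeded Dixon's 95% critical value; chance alone flags about 1 in 20 groups. In the control group these were Gm2a in replicate 1 at 550 CPM (others 511 to 511), Atp6ap1 in replicate 2 at 798 (910 to 924), Atp6v1c2 in replicate 3 at 1.02 (0.347 to 0.414), Cln3 in replicate 4 at 161 (186 to 189) and Asah1 in replicate 4 at 469 (612 to 621). In the syngeneic group they were Atp6v1c2 in replicate 3 at 0.219 (the others at 0), Mcoln1 in replicate 3 at 8.90 (5.26 to 5.69), Atp6v0d1 in replicate 3 at 97.1 (106 to 108), Ppt1 in replicate 4 at 662 (733 to 741) and Lamp2 in replicate 4 at 1073 (1150 to 1165). In the allogeneic group they were Neu1 in replicate 2 at 55.6 (41.9 to 44.2), Cd63 in replicate 3 at 931 (982 to 989), Atp6v1d in replicate 3 at 121 (92.8 to 93.6) and Ppt1 in replicate 4 at 863 (922 to 934).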

How the results depend on the processing

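By library totals only, 12 genes rose and 10 fell in allogeneic against syngeneic, and 15 rose in syngeneic against control; with the GC and length offset, 9 fell in allogeneic against control. Library totals moved the median over all genes to -0.22 in allogeneic against syngeneic, to -0.20 in syngeneic against control, and to -0.44 in allogeneic against control. In syngeneic against control the GC and length offset turned the log2 fold change of Naglu to 0.58, Atp6v1c1 to -0.016, Man2b1 to 0.073, Atp6ap2 to -0.14 and Atp6ap1 to 0.040. In allogeneic against control it turned Grn to 0.019, Gaa to 0.52, Arsb to 0.052, Atp6v1c1 to -0.028, Neu1 to 0.0097, Npc1 to 0.20, Atp6v1e1 to -0.024, Man2b1 to 0.21, Atp6ap1 to 0.15, Cd164 to -0.14 and Oxr1 to -0.11, and library totals turned Atp6v1c1 to -0.028, Lipa to -0.36, Atp6v0e2 to -0.30 and Cd164 to -0.18. The cause was not tested. Another 60 values changed sign while called under neither setting. The other counts of these 52 genes stayed within 1.5 times under the alternatives run. With the replicate block, Atp6v1d in allogeneic against syngeneic (0.40) and Atp6ap2 in syngeneic against control (0.21) lost their calls, Atp6v1g2 in syngeneic against control (-1.3) gained one, and no other call of the 52 changed; same-numbered libraries did not deviate together (r -0.015 to 0.032). At under 100 counts a group, Atp6v1c2 could not be judged: its log2 fold change of 2.85 in allogeneic against syngeneic passed without syngeneic replicate 3 (adjusted p = 0.0474), as did -3.29 in syngeneic against control (adjusted p = 0.0127).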
